A study of Arabidopsis thaliana with 33 samples.

Results

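The genes described here are 100 Arabidopsis thaliana protein-coding loci, of 27261 in the deposited count table, that stood higher in high light than in low light in cultured hypocotyl explants of the wild type and that also stood higher in high light in the hy5-2 mutant than in the low-light wild type. They were ranked by a score on log2(CPM + 1), where CPM is a locus's counts scaled to a common library total. At each of 3 culture stages the lower of 2 differences was taken, high-light Col-0 minus low-light Col-0 and high-light hy5-2 minus low-light Col-0, and the score is the mean of the 3 stages. The 100 highest scores run from 1.67 (RPP4) to 0.517 (MES9), and the first locus outside, UGT72E1, scored 0.516. Scores are close at that edge, with 0.522 for the fifth gene from the end inside and 0.509 for the fifth outside. These 6 differences chose the genes, so they are given below as descriptions and carry no test.

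Seedlings were 7 days old and had grown in constant low light of 2 µmol/m2/s, apart from several hours of high light at germination. RNA-seq libraries came from uncultured hypocotyls (T0), from explants kept 4 days on a callus-inducing medium holding 2,4-D and kinetin (CIM 4D), and from explants moved to a shoot-inducing medium holding indole-3-acetic acid and 2-isopentenyladenine for 4 (SIM 4D) or 8 days (SIM 8D). The wild type Col-0 has a low-light group at all 4 points and a high-light group, 40 µmol/m2/s, at the 3 culture stages. For the mutant hy5-2 there is 1 low-light group, T0, and 3 high-light culture groups, which gives 11 groups of 3 libraries in all. No culture of hy5-2 in low light was analysed, so high-light hy5-2 against low-light Col-0 differs in genotype and light together, and their shares cannot be told apart. Explants entered high light when culture started, so days of exposure and culture stage go together, and hy5-2 is a single mutant allele.

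HY5 is a bZIP transcription factor that accumulates in light and binds ACGT-containing elements such as the G-box in the promoters of many light-responsive genes; HYH is its closest relative. In this tissue light drives greening, the assembly of photosynthetic plastids, and HY5 is one of the regulators of that programme. Other routes from light to transcription in Arabidopsis include photoreceptors, the circadian clock, plastid signals and stress responses. HY5 (AT5G11260) was at 32.2 ± 3.39, 46.0 ± 5.47 and 37.2 ± 5.88 CPM (mean ± SD, n = 3) in high-light Col-0 at CIM 4D, SIM 4D and SIM 8D, and at 3.67 ± 0.032, 3.61 ± 0.258 and 2.69 ± 0.836 CPM in hy5-2. The close relative HYH was at 13.4 ± 1.24, 29.9 ± 4.09 and 28.4 ± 2.28 CPM in the same Col-0 groups and at 0.611 ± 0.244, 0.961 ± 0.211 and 0.421 ± 0.184 CPM in hy5-2, so in culture HYH was low in the mutant as well.

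Library totals ran from 7235763 to 21184356 counts, and replicates of a group correlated at 0.9889 or more on log2(CPM + 1). All 100 genes passed the filter on low counts, and 20842 loci were tested. Because the tissue is bulk, fewer cells of a type and less RNA per cell cannot be told apart in any value below. The labels do not say whether the 3 replicates came from separate cultures, so p-values measure the spread between these libraries.

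Promoters are shown for 8 members whose windows hold an evening element or a G-box. Of these, 3 carry the evening element, AAAATATCT on either strand, a sequence known from clock-regulated genes, and 5 carry the G-box, CACGTG. Each line gives the 250 bases before the gene start of the deposited table, 5′ to 3′ on the gene's strand, in TAIR10.1, with capitals marking the evening element or the G-box.

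FKF1 (chr1:25508426-25508675, plus strand): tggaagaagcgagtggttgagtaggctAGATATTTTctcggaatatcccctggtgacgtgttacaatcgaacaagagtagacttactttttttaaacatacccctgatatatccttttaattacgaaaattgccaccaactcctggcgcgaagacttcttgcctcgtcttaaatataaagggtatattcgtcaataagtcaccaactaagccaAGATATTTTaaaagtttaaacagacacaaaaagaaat

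JMJD5 (chr3:7275424-7275673, plus strand): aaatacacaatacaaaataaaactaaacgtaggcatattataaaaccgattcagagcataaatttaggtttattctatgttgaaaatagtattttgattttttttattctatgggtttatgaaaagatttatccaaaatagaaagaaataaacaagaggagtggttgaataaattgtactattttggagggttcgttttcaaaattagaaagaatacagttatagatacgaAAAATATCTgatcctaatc

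RPP4 (chr4:9495817-9496066, minus strand): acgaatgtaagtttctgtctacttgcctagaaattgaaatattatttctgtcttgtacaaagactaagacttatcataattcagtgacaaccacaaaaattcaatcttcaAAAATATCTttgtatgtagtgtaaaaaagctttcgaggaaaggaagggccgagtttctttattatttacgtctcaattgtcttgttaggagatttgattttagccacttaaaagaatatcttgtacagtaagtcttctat

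RVE8 (chr3:2946156-2946405, plus strand): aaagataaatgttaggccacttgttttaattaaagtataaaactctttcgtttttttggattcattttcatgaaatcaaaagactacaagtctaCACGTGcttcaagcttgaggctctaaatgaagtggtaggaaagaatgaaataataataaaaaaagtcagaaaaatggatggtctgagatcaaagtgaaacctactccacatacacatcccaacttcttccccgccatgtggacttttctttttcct

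BBX30 (chr4:8708598-8708847, plus strand): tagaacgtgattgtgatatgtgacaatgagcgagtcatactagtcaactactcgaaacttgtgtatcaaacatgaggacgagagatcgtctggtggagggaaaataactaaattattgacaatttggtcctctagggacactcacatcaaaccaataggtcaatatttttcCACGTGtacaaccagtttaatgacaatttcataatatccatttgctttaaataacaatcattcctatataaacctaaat

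BBX31 (chr3:7709734-7709983, minus strand): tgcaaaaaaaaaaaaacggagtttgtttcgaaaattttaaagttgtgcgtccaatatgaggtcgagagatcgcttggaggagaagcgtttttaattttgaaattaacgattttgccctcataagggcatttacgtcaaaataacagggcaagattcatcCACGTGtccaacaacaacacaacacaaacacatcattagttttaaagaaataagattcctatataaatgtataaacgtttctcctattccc

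ELIP1 (chr3:8085561-8085810, minus strand): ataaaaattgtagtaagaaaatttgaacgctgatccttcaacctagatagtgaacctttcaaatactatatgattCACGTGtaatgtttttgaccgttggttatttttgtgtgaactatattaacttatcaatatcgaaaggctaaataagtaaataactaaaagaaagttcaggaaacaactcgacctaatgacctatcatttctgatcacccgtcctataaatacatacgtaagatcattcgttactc

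KIN2 (chr5:5211661-5211910, plus strand): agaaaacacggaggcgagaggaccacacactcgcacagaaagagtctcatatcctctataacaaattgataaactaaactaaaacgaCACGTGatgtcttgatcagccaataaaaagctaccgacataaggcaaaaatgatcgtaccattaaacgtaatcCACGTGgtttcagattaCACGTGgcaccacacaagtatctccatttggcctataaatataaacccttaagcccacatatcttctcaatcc

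In this window the evening element was found in 9 of the 100 members (9.0%) and in 2.3% of the windows of all 27205 protein-coding loci that had one. The 9 were RPP4, its neighbour in the same resistance-gene cluster RPP5, JMJD5, EARLI1, FKF1, ABCC10, AT2G29320, AT1G28610 and AT5G40500; FKF1 holds 2 copies. The G-box was found in 14.0% of members and 7.7% of all windows, with 3 copies in KIN2. The I-box GATAAG was found in 25 of the 100 against 12.8%, the W-box core TTGAC in 51 against 44.6%, the cold response element CCGAC in 10 against 13.1%, and the ACGT core, which every G-box contains, in 53 against 45.6%. Both strands were searched for each motif. These are matches to letters only, and no binding was measured. Many gene starts differ between the deposited coordinates and the reference annotation. The starts were the same for 3535 of 8327 matched loci on chromosome 1 and for 2615 of 5436 on chromosome 2. Windows, motif shares and positions depend on the deposited starts. The clock and light-response members PRR5, PHOT1 and ULI3 hold neither evening element nor G-box in this window. In RPP4 the I-box, evening element and ACGT core start at -181, -140 and -73 from the gene start and in RPP5 at -170, -129 and -62, the same spacing, so the matches of these paralogs are not separate occurrences.

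The median member differed by 0.91, 1.21 and 1.66 log2 units between Col-0 in high and in low light at CIM 4D, SIM 4D and SIM 8D, while the median over all protein-coding loci was 0.00 at each stage. For high-light hy5-2 against low-light Col-0 the medians of the members were 0.47, 0.85 and 1.01. Whether the name "raised by light without HY5" holds cannot be judged, since no low-light culture of hy5-2 was analysed. The members met the rule unevenly. In 88 members all 6 differences were above 0, in 27 all were above 0.5, and in 3, RPP4, SAG13 and JMJD5, all were above 1. In 12 members at least 1 difference was 0 or below, among them VSP2, BGL2, AT3G61490 and AT2G33850, and CYP78A5 and AT3G45680 had no count at CIM 4D in any cultured group. SIM 8D gave the largest part of the score in 59 members, SIM 4D in 27 and CIM 4D in 14.

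**Figure D1:**
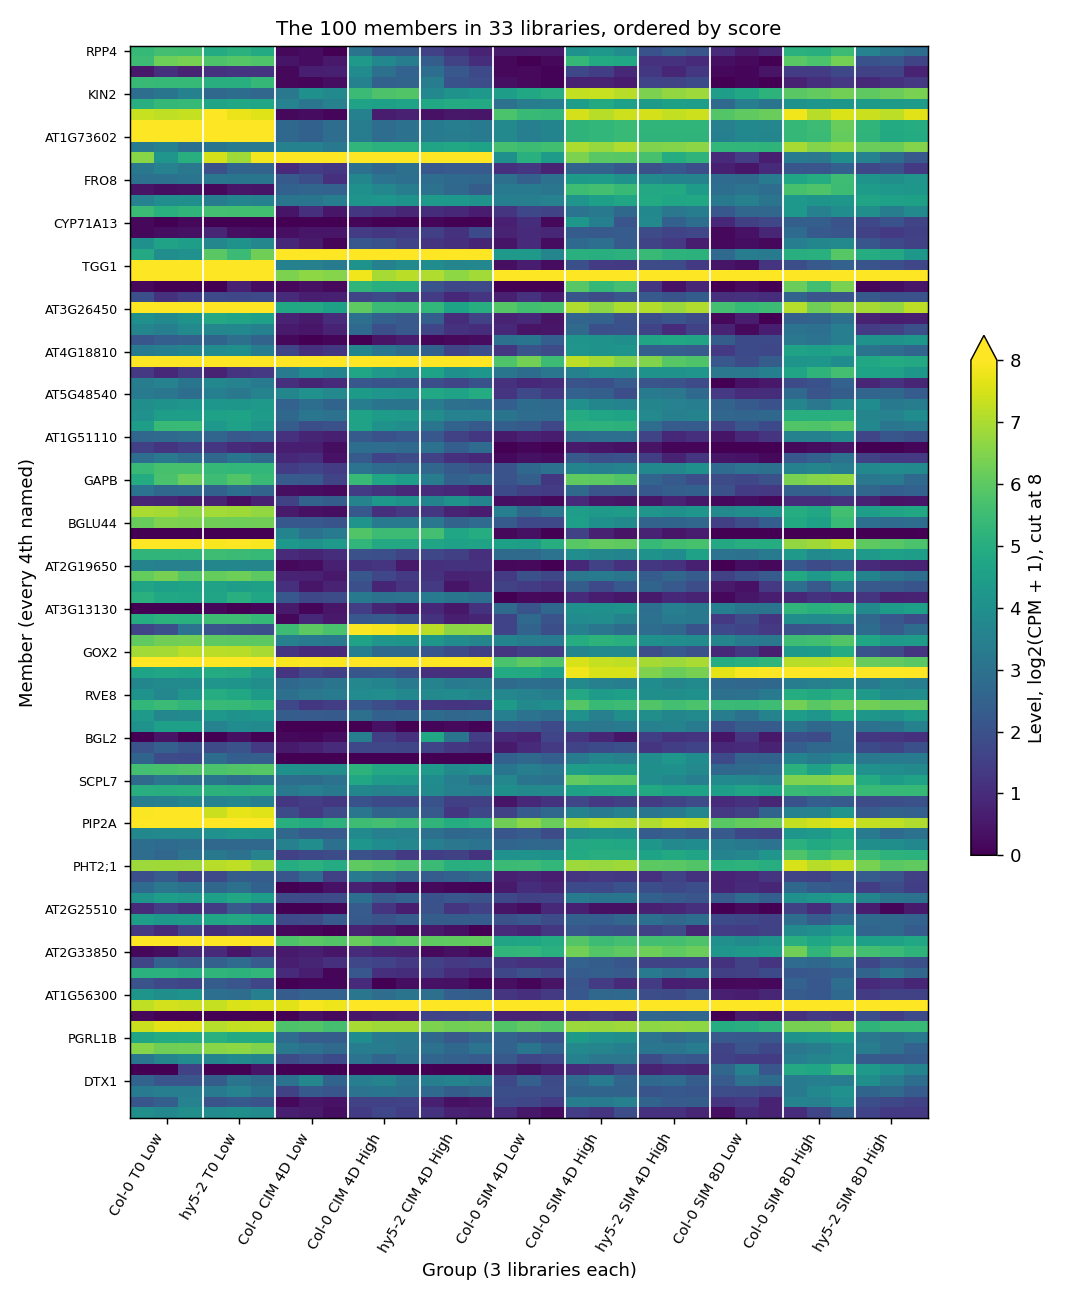
Level of each of the 100 members (rows, from the highest score at the top, every 4th named) in each of the 33 libraries (columns, grouped by genotype, stage and light), as log2(CPM + 1) with the colour scale ending at 8. Many rows are bright at T0, dark in the 3 Col-0 low-light culture groups and intermediate in the high-light groups.

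Most members were lower in hy5-2 than in Col-0 at the same high light. Averaged over the 3 stages, high-light hy5-2 stood below high-light Col-0 in 84 members and above it in 16, with a median difference of -0.43. Of the members, 55 lay within 0.5 of equality and 21 at -1 or below. These counts use the group means that the rule used. They have no share over all loci beside them, so they only describe the list. As a share of the Col-0 difference between lights, the difference of hy5-2 from low-light Col-0 had a median of 66.5% and ran from 16.1% in ELIP1 to 291.7% in UGT71B8. The 5 lowest members on the genotype difference were ELIP1 (-4.60), ALDH11A3 (-3.39), GAPB (-3.06), FNR2 (-2.22) and GOX2 (-1.90). The 5 highest were UGT71B8 (1.04), AT5G48540 (0.49), AT3G26460 (0.46), AT3G45710 (0.32) and PRR5 (0.25).

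**Figure D2:**
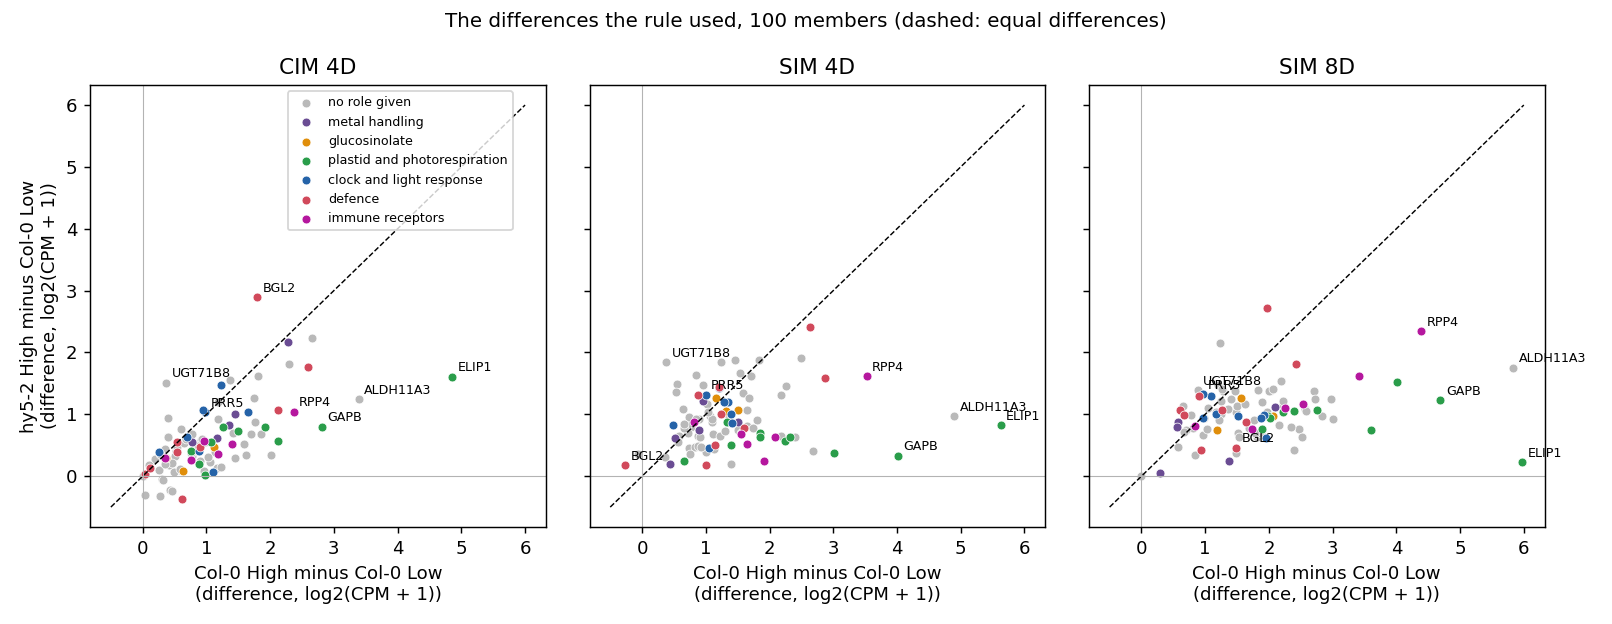
The 2 differences that the rule used, at each stage: Col-0 in high minus low light (horizontal) against high-light hy5-2 minus low-light Col-0 (vertical), both in log2(CPM + 1), 1 point per member, coloured by role. Points on the dashed line have equal differences; ELIP1, ALDH11A3 and GAPB lie far below it and UGT71B8 above it at CIM 4D and SIM 4D.

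Clock and light-response genes include members whose averages over the stages were near equal in both high-light genotypes. Of 8 such genes 5 had a lower mean in hy5-2 and 3 a higher one, their genotype differences ran from -0.82 to 0.25, and their median share was 77.8%. Roles in this account were assigned after the values were seen. PRR5 (AT5G24470, chromosome 5, 8355951 to 8358873), a pseudo-response regulator of the clock that represses transcription, was at 7.52, 7.54 and 9.24 CPM in low-light Col-0 at CIM 4D, at 16.7, 17.5 and 16.4 CPM in high-light Col-0, and at 18.7, 18.4 and 15.9 CPM in high-light hy5-2. Every high-light library of either genotype stood above every low-light library at that stage, and the genotypes overlapped. At SIM 8D the PRR5 means were 8.67 ± 1.45, 17.7 ± 0.798 and 23.1 ± 1.01 CPM in the same order of groups, and the 3 groups were apart.

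JMJD5 (AT3G20810, chromosome 3, 7275674 to 7278379), a jumonji-domain protein that contributes to clock pace, was at 10.7, 7.73 and 10.1 CPM in low-light Col-0 at CIM 4D, at 23.6, 22.5 and 23.9 CPM in high-light Col-0 and at 26.3, 29.1 and 28.8 CPM in high-light hy5-2. The genotypes did not overlap at that stage, hy5-2 being higher. Both high-light groups were more than 2 times the low-light mean at each stage on the mean levels, which were 9.5, 8.71 and 7.68 CPM for low-light Col-0, 23.3, 23.6 and 17.2 CPM in high-light Col-0 and 28.0, 21.0 and 19.8 CPM in hy5-2. FKF1 (AT1G68050, chromosome 1, 25508676 to 25510889), a blue-light receptor and F-box protein of photoperiodic flowering, was at 1.36 ± 0.351, 6.37 ± 0.696 and 3.80 ± 0.284 CPM at CIM 4D in low-light Col-0, high-light Col-0 and high-light hy5-2. For FKF1 the mutant thus lay between the 2 Col-0 groups, without overlap at that stage, and its share of the Col-0 difference was 65.9%. RVE8 (AT3G09600), a MYB-like activator of evening-expressed clock genes, had similar levels in both high-light genotypes at CIM 4D (13.3 ± 0.902 and 12.7 ± 0.89 CPM) but at SIM 8D it was at 30.3 ± 2.23 CPM in Col-0, at 15.6 ± 2.78 CPM in hy5-2 and at 7.60 ± 1.18 CPM in low-light Col-0.

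BBX30 and BBX31, small B-box proteins of light signalling, are the only members among the 20 listed light-signalling and greening regulators. BBX31 (AT3G21890) was at 0.61, 1.18 and 0.54 CPM in low-light Col-0 at SIM 4D, at 3.22, 2.55 and 3.40 CPM in high-light Col-0 and at 3.75, 3.24 and 4.16 CPM in hy5-2, so the high-light genotypes overlapped and both stood above low light. BBX30 (AT4G15248) was at 0.423 ± 0.361, 4.36 ± 1.34 and 1.78 ± 0.195 CPM at SIM 8D in low-light Col-0, high-light Col-0 and high-light hy5-2. PHOT1, a blue-light receptor of phototropism, was at 2.22 ± 0.582, 5.97 ± 1.63 and 2.47 ± 1.16 CPM at CIM 4D, where the mutant overlapped the low-light group, and at 3.77 ± 1.72, 10.1 ± 1.09 and 9.56 ± 2.21 CPM at SIM 4D. ULI3, named for its link to UV-B light signalling, had a genotype difference of 0.15.

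**Figure D3:**
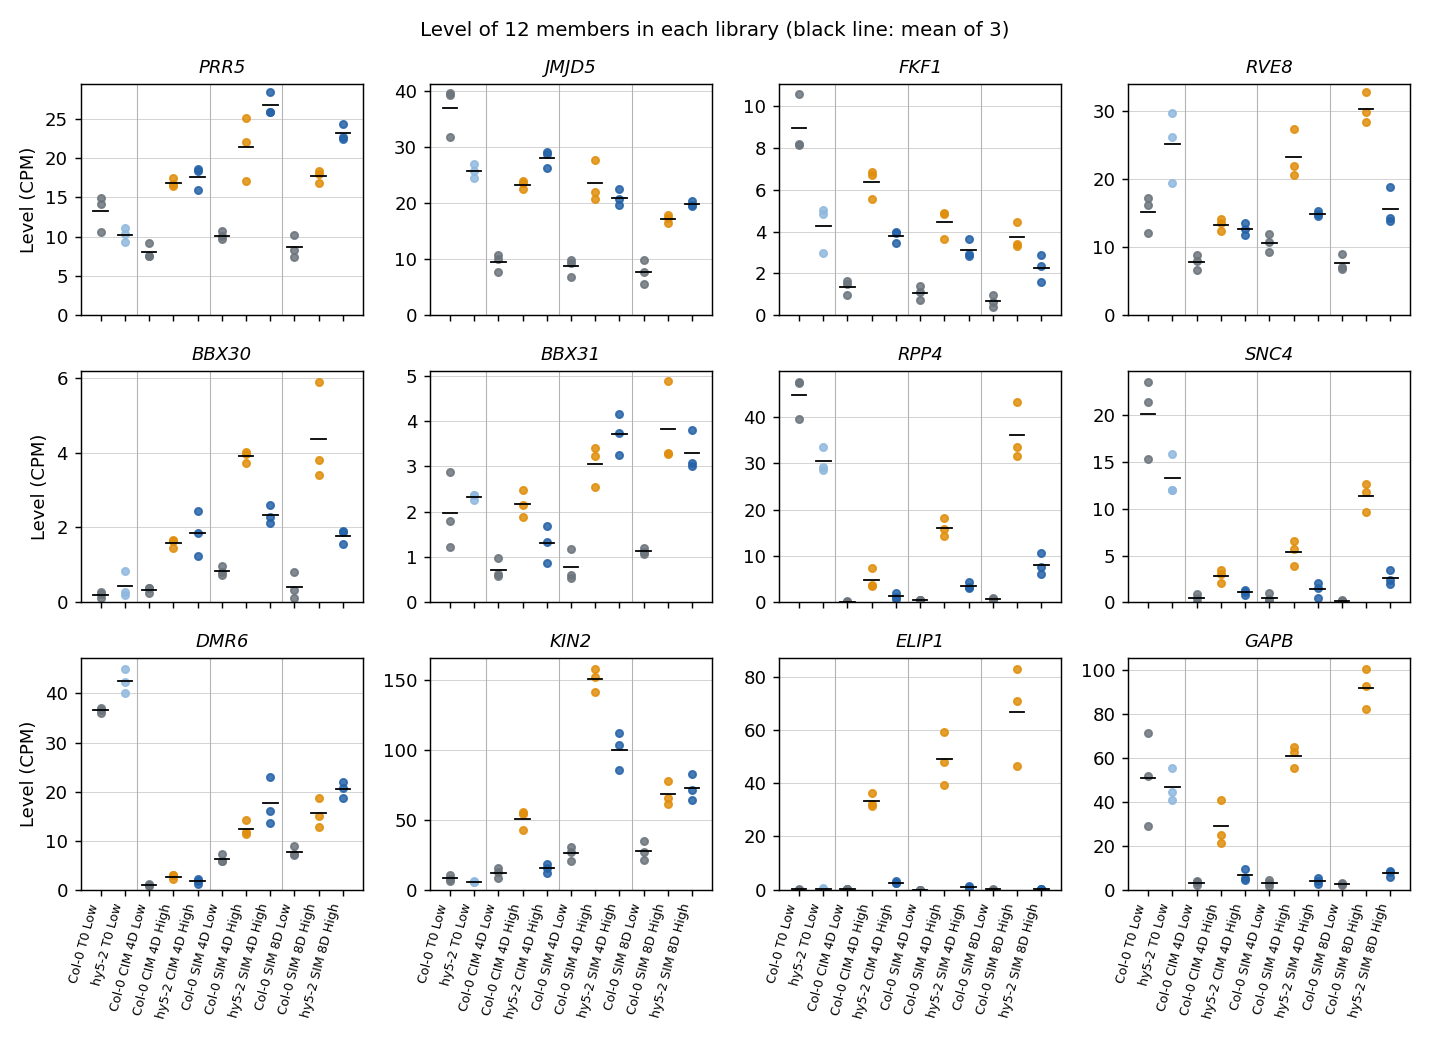
CPM of 12 members in each library (points; black line, mean of 3) across the 11 groups; grey is low-light Col-0, orange high-light Col-0, pale blue hy5-2 in low light at T0 and blue high-light hy5-2. In PRR5 and JMJD5 every cultured high-light library of either genotype lies above every cultured low-light one, RPP4 and SNC4 are intermediate in hy5-2, and ELIP1 and GAPB in hy5-2 are close to low-light Col-0.

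Immune receptors and defence genes form the next group. Of 71 detected TIR-NBS-LRR receptor loci, where detected means a mean of at least 1 CPM in some group, 5 are members (7.04%), against 0.49% of all 20210 detected protein-coding loci; no test is attached, since the list was picked by value, and the median over these receptor loci lay between 0.04 and 0.14 on all 6 differences. RPP4 (AT4G16860, chromosome 4, 9488466 to 9495816), a resistance gene against downy mildew in the RPP5 cluster, has the highest score. At SIM 8D it was at 1.00, 0.48 and 0.82 CPM in low-light Col-0, at 33.5, 31.6 and 43.3 CPM in high-light Col-0 and at 10.6, 7.67 and 6.06 CPM in high-light hy5-2. The 3 groups did not overlap, and hy5-2 lay between the Col-0 groups at each culture stage. RPP5 (AT4G16950), a close paralog of RPP4, was at 9.55 ± 1.73, 49.2 ± 5.50 and 21.5 ± 3.24 CPM in those groups; reads shared by the 2 paralogs may be divided between them in a way the table does not show, so each is uncertain. SNC4, a receptor-like kinase of defence signalling, was at 0.161 ± 0.069, 11.4 ± 1.56 and 2.62 ± 0.739 CPM. LAZ5, a TIR-NBS-LRR gene tied to cell death in mutant backgrounds, was at 4.68 ± 1.10, 17.8 ± 2.94 and 8.66 ± 2.45 CPM. AT1G31540 differed from these: at 22.6 ± 1.77, 41.2 ± 2.17 and 40.1 ± 0.627 CPM its levels in the 2 high-light genotypes were close, a share of 98.0% over the 3 stages.

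Among 9 defence genes the median share was 79.5%, and 6 had a lower mean in hy5-2. DMR6, a salicylic acid hydroxylase that restrains immunity, was at 7.35, 7.13 and 8.83 CPM in low-light Col-0 at SIM 8D, at 18.7, 12.9 and 15.1 CPM in high-light Col-0 and at 18.6, 22.0 and 20.7 CPM in hy5-2. Both high-light groups were above all low-light libraries and overlapped each other. ICS2, an isochorismate synthase of the salicylic acid route, was at 3.08 ± 0.588, 8.31 ± 0.373 and 10.03 ± 1.11 CPM at SIM 4D. BGL2, the pathogenesis-related beta-1,3-glucanase PR2, varied widely between replicates, with a CIM 4D mean of 4.19 ± 4.75 CPM in high-light Col-0 that compares with 11.8 ± 12.9 CPM in high-light hy5-2. SAG13, a senescence-associated dehydrogenase, was at 0.441 ± 0.278, 8.28 ± 4.54 and 4.1 ± 2.07 CPM at CIM 4D.

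The 10 members with plastid or photorespiratory roles had the smallest shares of any role, with a median of 35.8% and a range from 16.1 to 55.1%, and all 10 had a lower mean in hy5-2. ELIP1 (AT3G22840, chromosome 3, 8084447 to 8085560), an early light-induced protein that protects against excess light, was at 36.3, 32.3 and 31.6 CPM in high-light Col-0 at CIM 4D and at 3.16, 2.34 and 2.38 CPM in hy5-2, against 0.12, 0.29 and 0.16 CPM in low-light Col-0. At SIM 8D the same groups were at 71.0, 46.6 and 83.0 CPM, at 0.09, 0.22 and 0.40 CPM, and at 0.00, 0.16 and 0.00 CPM. ELIP1 is thus a member through a small difference from a level near 0, mainly at CIM 4D, and every high-light Col-0 library stood far above every high-light hy5-2 library at both stages. GAPB, a subunit of the plastid glyceraldehyde-3-phosphate dehydrogenase, was at 82.5, 92.8 and 100.6 CPM in high-light Col-0 at SIM 8D, at 8.22, 8.67 and 5.66 CPM in hy5-2 and at 2.62, 2.24 and 2.94 CPM in low light. GOX2, a glycolate oxidase of photorespiration, was at 23.1 ± 6.10, 2.37 ± 0.994 and 0.968 ± 0.435 CPM in the same order. GS2, the plastid glutamine synthetase, had the highest share of the 10, with 120.4 ± 20.3, 58.5 ± 5.76 and 29.3 ± 1.81 CPM.

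Other members have metabolic or stress roles. ALDH11A3 (AT2G24270), the non-phosphorylating glyceraldehyde-3-phosphate dehydrogenase of the cytosol, ranks second by score and was at 64.7 ± 13.9 CPM in high-light Col-0, 2.87 ± 0.701 CPM in hy5-2 and 0.136 ± 0.126 CPM in low light at SIM 8D, a share of 28.1% over the stages. KIN2 (AT5G15970), a cold- and abscisic acid-induced protein, was at 12.1 ± 3.53, 50.8 ± 6.94 and 15.4 ± 3.08 CPM at CIM 4D in low-light Col-0, high-light Col-0 and high-light hy5-2. At SIM 8D it was at 27.9 ± 6.74, 68.3 ± 8.54 and 72.8 ± 9.51 CPM, and at SIM 4D at 26.1 ± 4.96, 150.5 ± 8.63 and 100.3 ± 13.7 CPM. High-light hy5-2 was thus close to low light at CIM 4D, between the Col-0 groups without overlap at SIM 4D, and close to high-light Col-0 at SIM 8D. UGT71B8, a glycosyltransferase, was at 0.73, 0.70 and 0.81 CPM in low-light Col-0, 1.24, 1.38 and 1.18 CPM in high-light Col-0 and 5.21, 5.07 and 5.52 CPM in hy5-2 at SIM 4D, all 3 groups apart. The 5 metal-handling members, NAS3, FRO8, HIPP25, MT2A and FER1, had a median share of 80.6%, and the 3 glucosinolate genes, TGG1, FMO GS-OX3 and AT2G25450, 62.6%. By family name in the reference annotation, 5 of 76 detected 2-oxoglutarate and Fe(II) oxygenases (6.58%), 3 of 25 polyketide cyclase-like loci, 5 of 169 cytochromes P450 (2.96%) and 2 of 111 glycosyltransferases (1.8%) are members.

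Several members share reads or a place in the genome. There are 6 pairs of members that lie within 5 loci of each other, 11 members in all: AT1G73600 and AT1G73602, AT2G29320 and AT2G29340, AT2G29340 and SAG13, AT3G26450 and AT3G26460, AT3G45680 and AT3G45710, and AZI1 and EARLI1. AT1G73602 lies inside AT1G73600 on the same strand, with 29297 and 29555 counts over all libraries, so these 2 members are 1 measurement. FER1, an iron-storage ferritin of plastids, has 33173 counts and AT5G01595, which covers 98.2% of it on the opposite strand, has 33420, so counts at this locus were not separated by strand and belong to either gene. G-TMT overlaps HEB1 over 120 bases on the opposite strand, with 543.0 HEB1 counts per 100 of its own, and TIC55-II, ALDH2C4 and DTX1 overlap opposite-strand neighbours by 55 to 124 bases.

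Many members stood higher before culture than in low-light culture, while their typical level at T0 was near that of other loci. In low-light Col-0 their median was 14.7 CPM at T0 and 2.39, 3.09 and 2.76 CPM at CIM 4D, SIM 4D and SIM 8D in low light, whereas the medians over 20210 detected protein-coding loci were 16.4, 18.5, 18.4 and 17.8 CPM. In 70 members the T0 mean of Col-0 was above that of all 3 low-light Col-0 culture groups, against 32.8% of detected loci, and in 46 it was above all 9 culture groups, against 27%. The low-light culture groups enter the rule, which picks genes that are low there, so these shares are given without a test. PHOT1 is an example, at 299.2 ± 46.7 CPM at T0 and at most 3.77 CPM in the low-light culture means; TGG1, a myrosinase of glucosinolate breakdown, was at 508.1 ± 92.6 CPM at T0 and 9.92 ± 0.725 CPM at CIM 4D in low light. ELIP1 and BBX30 were low at T0, at 0.038 ± 0.067 and 0.204 ± 0.082 CPM.

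No T0 library entered the rule, so the genotypes can be compared there with a test. In low light before culture, 4 members were higher and 8 lower in hy5-2 than in Col-0 by edgeR's quasi-likelihood test at a Benjamini-Hochberg adjusted p under 0.05, 88 did not pass, and 28 were at an unadjusted p under 0.05. The 12 calls compare with 5.12% of all 20842 loci tested, 1.98% higher and 3.14% lower. EARLI1, AT5G64120, AZI1 and RVE8 rose and FKF1, AT1G56300, FNR2, ICS2, PHOT1, RPP4, JMJD5 and FER1 fell. PHOT1 is named after its value was seen. Of the 8 clock and light-response members, FKF1, JMJD5 and PHOT1 were lower, RVE8 was higher and 4 did not pass. That role was assigned after the values were seen, and the calls of JMJD5 and PHOT1 depended on single libraries. No result for the role is read from these calls.

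**Figure D4:**
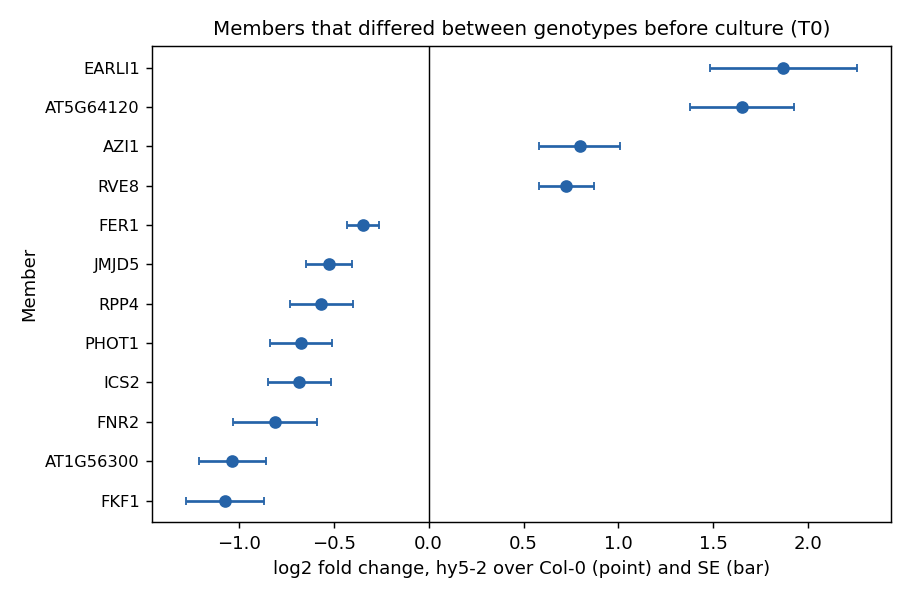
Log2 fold change of hy5-2 over Col-0 at T0 (points) with its standard error (bars) for the 12 members with an adjusted p under 0.05. Of these, 4 lie above 0, with EARLI1 the farthest at 1.87, and 8 below, with FKF1 the farthest at -1.07.

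FKF1 was at 8.18, 10.6 and 8.15 CPM in the Col-0 libraries and at 2.97, 5.03 and 4.84 CPM in hy5-2 at T0, without overlap, a log2 fold change of -1.07 ± 0.21 (SE; edgeR, adjusted p = 0.00116). JMJD5 was at 31.9, 39.3 and 39.7 CPM against 24.5, 27 and 25.7 CPM (-0.53 ± 0.12, adjusted p = 0.00647), and its call was lost without Col-0 replicate 2 (adjusted p = 0.0744). RVE8 went the other way, at 16.1, 12.1 and 17.1 CPM in Col-0 against 29.7, 26.2 and 19.5 CPM in the mutant, with no overlap (0.73 ± 0.14, adjusted p = 0.00151). AT5G64120, a peroxidase gene, was at 27.5, 14.3 and 15.5 CPM in Col-0 against 60.5, 43.0 and 76.2 CPM in the mutant, again with no overlap (1.65 ± 0.27, adjusted p = 0.000555). EARLI1, a lipid-transfer-like protein gene of the AZI1 family, rose by 1.87 ± 0.39 (adjusted p = 0.00433) and AT1G56300, a DnaJ-domain gene, fell by 1.03 ± 0.17 (adjusted p = 0.000267). FKF1, RVE8, EARLI1, AT5G64120 and AT1G56300 kept their calls under all 11 alternatives that bear on T0.

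The other 7 T0 calls depended on single libraries. AZI1, a lipid-transfer-like protein of systemic immunity, changed by 0.80 ± 0.21 (edgeR, adjusted p = 0.027), PHOT1 by -0.67 ± 0.16 (0.0136), ICS2 by -0.68 ± 0.17 (0.0118), FER1 by -0.35 ± 0.08 (0.0103), FNR2 by -0.81 ± 0.22 (0.0307) and RPP4 by -0.57 ± 0.16 (0.0401). Each of these 6 lost its call without Col-0 replicate 2, without Col-0 replicate 3 and without hy5-2 replicate 1, with adjusted p-values of up to 0.251. The number of calls was 6 without Col-0 replicate 2, without Col-0 replicate 3 or without hy5-2 replicate 1, and 19 without Col-0 replicate 1. Most members with large genotype differences in cultured tissue did not pass at T0: GAPB was at 50.8 ± 21.2 CPM in Col-0 against 46.9 ± 7.75 CPM in the mutant, GOX2 at 126.9 ± 13.3 and 135.1 ± 11.7 CPM, and ALDH11A3 at 66.6 ± 20.1 and 55.7 ± 2.52 CPM.

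Changes between culture stages come from the same libraries that chose the members, and SIM 8D gave the largest part of the score in 59 of them, so the counts follow in part from the rule. They are given as a description beside the share over all loci, and nothing about the members as a group is read from them. P-values of single members in the stage comparisons below come from the same libraries. Those p-values are a record, and no conclusion is drawn from them. From CIM 4D to SIM 4D in low-light Col-0, 37 members rose and 20 fell, where 43.9% of all loci passed, 21.5% rising and 22.3% falling. In high-light Col-0 62 rose and 22 fell, where 49% of all loci passed (25.7% and 23.2%), and in high-light hy5-2 49 rose and 23 fell, where 53.1% passed (25.5% and 27.6%). From SIM 4D to SIM 8D 9 rose and 11 fell in low-light Col-0, where 14.9% of loci passed (6.65% and 8.23%), 43 rose and 9 fell in high-light Col-0, where 22.4% passed (12% and 10.5%), and 20 rose and 17 fell in high-light hy5-2, where 19.8% passed (8.71% and 11.1%). The median change from SIM 4D to SIM 8D was 0.42 in high-light Col-0, 0.02 in high-light hy5-2 and -0.16 in low-light Col-0; whether these medians differ was not tested.

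**Figure D5:**
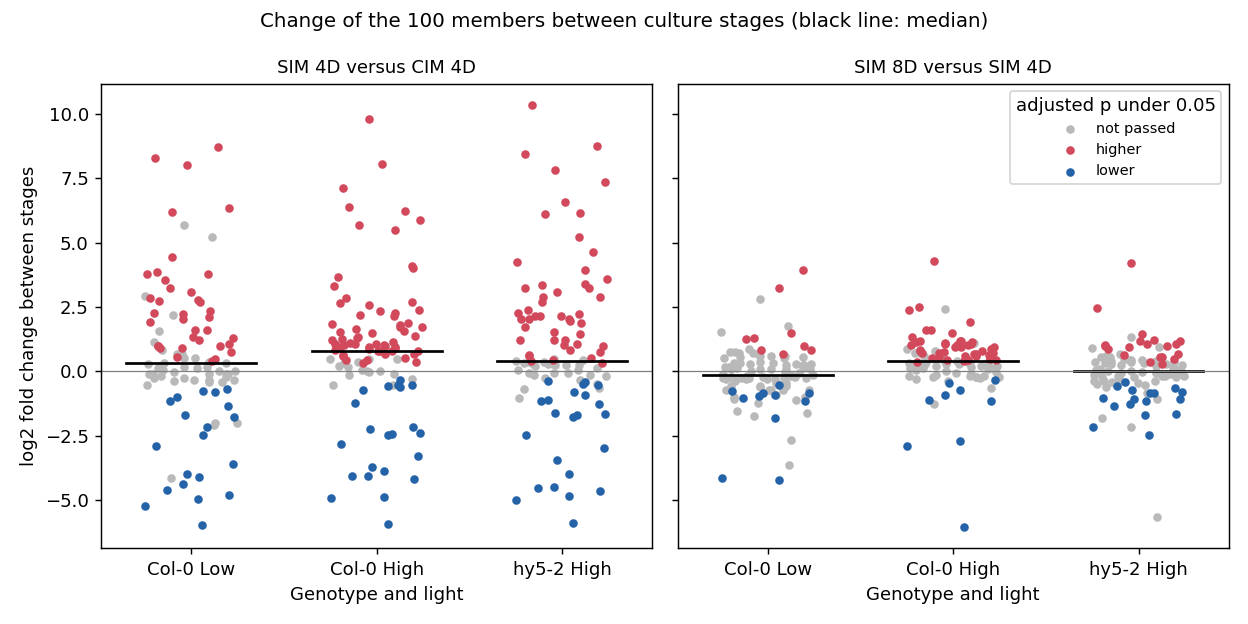
Log2 fold change of each member between culture stages (points; red, higher and blue, lower at an adjusted p under 0.05; grey, not passed; black line, median) in low-light Col-0, high-light Col-0 and high-light hy5-2. From SIM 4D to SIM 8D the red points outnumber the blue ones in high-light Col-0, 43 to 9, and are 20 to 17 in hy5-2.

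The immune receptors were among the members that rose in high light on SIM; their role was assigned after the values were seen, and the libraries are those the rule used. All 6 rose in high-light Col-0 from CIM 4D to SIM 4D, where 62 of the 100 members and 25.7% of all loci rose, and again to SIM 8D, where 43 members and 12% of all loci rose; 5 rose without Col-0 CIM 4D High replicate 3 in the first step and 5 without Col-0 SIM 8D High replicate 3 in the second. RPP4 rose by 1.73 ± 0.21 and then by 1.17 ± 0.17 on the log2 scale (edgeR, adjusted p = 3.98e-08 and 6.32e-06), and in hy5-2 by 1.45 ± 0.35 and 1.23 ± 0.26 (adjusted p = 0.000813 and 0.000781). In hy5-2 2 of the 6 rose and 1 fell in the first step and 5 rose in the second. In low light AT1G31540 rose in both steps and LAZ5 in the second. Of the plastid and photorespiratory members 9 of 10 rose and 1 fell from CIM 4D to SIM 4D in high-light Col-0, beside the same 62 members and 25.7% of loci. In high-light hy5-2 3 of the 10 rose and 2 fell, where 49 members and 25.5% of loci rose.

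The named members with the largest changes between stages had varied roles. They were picked by the size of the change in libraries the rule used, so their p-values are descriptive. AT3G45680, a major facilitator transporter, had no count at CIM 4D in any culture group and was at least 51-fold higher at SIM 4D in low-light Col-0, while the rise was at least 140-fold in high-light Col-0 and at least 210-fold for the mutant, taking 3 counts over the group as the limit. AT5G37990, a methyltransferase gene, rose by 8.28 ± 0.79 in low-light Col-0 and 8.73 ± 0.55 in hy5-2 (edgeR, adjusted p = 5.67e-09 and 2.53e-12). CYP71A13, a cytochrome P450 of camalexin synthesis, had 1 count in high-light Col-0 at CIM 4D and 351 at SIM 4D. EARLI1 fell by 5.21 ± 0.43 in low-light Col-0 (adjusted p = 4.24e-10), from 866.5, 900.3 and 774.6 CPM to 15.3, 33.04 and 19.8 CPM, and DIR1, a lipid-transfer protein of systemic resistance, fell by 4.9 ± 0.22 in high-light Col-0 (adjusted p = 1.27e-15). AT3G07620, a glycosyltransferase, fell by 5.96 ± 0.65, 5.93 ± 0.37 and 5.88 ± 0.42 in low-light Col-0, high-light Col-0 and hy5-2 (adjusted p = 1.22e-06, 1.25e-09 and 5.65e-09). AZI1 and EARLI1 fell in both steps in all 3 conditions.

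From SIM 4D to SIM 8D CYP78A5, a cytochrome P450 that marks the shoot apex periphery and promotes organ growth, rose by 3.95 ± 0.66 in low-light Col-0, 4.27 ± 0.43 in high-light Col-0 and 4.21 ± 0.54 in hy5-2 (edgeR, adjusted p = 0.000242, 6.35e-07 and 1.17e-05). Its SIM 8D levels were 5.24, 10.3 and 3.41 CPM, 27.2, 25.5 and 41.3 CPM, and 18.5, 15.2 and 11.3 CPM in those groups. ATH1, a homeobox gene of the shoot apex, rose by 2.38 ± 0.24 in high-light Col-0 and by 1.44 ± 0.30 in hy5-2 (adjusted p = 5.44e-09 and 0.000598), with 16.1 ± 3.75 and 4.89 ± 0.821 CPM at SIM 8D. The summed level of 10 shoot meristem and boundary markers was 165.7 ± 3.00 CPM in low-light Col-0, 263.7 ± 19.6 CPM in high-light Col-0 and 176.1 ± 7.17 CPM in hy5-2 at SIM 8D, with counts for all 10; its part in these results was not tested. VSP2, a jasmonate-responsive vegetative storage protein, rose by 3.23 ± 0.14, 1.92 ± 0.12 and 2.47 ± 0.13 in the 3 conditions (adjusted p = 5.56e-15, 7.3e-12 and 3.12e-13). AT2G25510 rose by 2.50 ± 0.63 in high-light Col-0 (adjusted p = 0.00369), a call lost without Col-0 SIM 8D High replicate 3 (0.0588).

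How the differences between lights changed from CIM 4D to SIM 8D is a matter of values the rule used, so it carries no test here. In RPP5 the Col-0 low-light level was 9.12 ± 0.939 CPM at CIM 4D and 9.55 ± 1.73 CPM at SIM 8D, while the high-light Col-0 level was 18.9 ± 3.76 and 49.2 ± 5.50 CPM and that of high-light hy5-2 14.1 ± 3.20 and 21.5 ± 3.24 CPM. HIPP25, a heavy-metal-associated protein, was at 1.79 ± 0.214, 6.17 ± 0.99 and 4.01 ± 1.15 CPM at CIM 4D and at 6.66 ± 0.655, 10.4 ± 1.17 and 13.02 ± 0.596 CPM at SIM 8D in low-light Col-0, high-light Col-0 and high-light hy5-2.

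Greening genes outside the members resembled most members in direction in 2 of the 3 comparisons. They were higher in high-light than in low-light Col-0 and lower in high-light hy5-2 than in high-light Col-0. The members' direction between the Col-0 lights was set by the rule, and the genotype comparison uses group means that the rule used. The shared direction is thus in part built in, and nothing about the members is read from it. The third comparison, high-light hy5-2 against low-light Col-0, is the one by which the rule set members apart, so a difference there is built in too. The plastid lists held 133 genes that are not members, on antenna, photosystem I and II, electron transport, Calvin cycle, photorespiration, chlorophyll and photoprotection, of which 129 were tested. In high-light hy5-2 against high-light Col-0, all but 24 of the 129 were lower at CIM 4D, all but 17 at SIM 4D and all but 13 at SIM 8D, and none was higher by edgeR, by DESeq2 or at an unadjusted p under 0.05. Over all loci 9.15%, 10% and 13.4% were lower and 6.37%, 10.4% and 10.1% higher at those stages, 15.5%, 20.4% and 23.5% together. Between the lights in Col-0, 89, 113 and 120 of them were higher and 0, 1 and 1 lower, where 5.14%, 9.09% and 16% of all loci were higher and 3.14%, 4.39% and 11.6% lower (8.29%, 13.5% and 27.6% together). In high-light hy5-2 against low-light Col-0, 1, 2 and 10 were higher and 36, 43 and 9 lower. There 3.94%, 5.51% and 3.96% of all loci were higher and 6.63%, 2.51% and 2.87% lower, 10.6%, 8.02% and 6.83% together. All 12 photosystem I subunit genes were lower in hy5-2 than in high-light Col-0 at each stage, by a median of 2.84, 3.99 and 3.19 on the log2 scale, with no member among them. Over the plastid lists the medians of this comparison ran from -0.63 (photorespiration) to -3.99 (photosystem I), both at SIM 4D. The members' medians at the 3 stages were -0.43, -0.28 and -0.65 in log2(CPM + 1), a different scale. The members on these lists are ELIP1, FNR2, PGRL1B, GAPB and GOX2. Of 16 flavonoid genes, none a member, 14 were tested and 9 were lower in high-light hy5-2 at each stage, while at T0 5 were higher by edgeR and 2 by DESeq2, and 0 were lower by either or at an unadjusted p under 0.05. Of 18 tested light-signalling regulators that are not members, 11 were lower at SIM 8D, and 0 were higher by edgeR or DESeq2 with 1 higher at an unadjusted p under 0.05. The lists were chosen with results of these data known.

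Some marker sums of other cell types and states also differed between these groups. At SIM 8D the libraries of the 3 groups were apart for the hypoxia and xylem sums. The root and epidermis sums overlapped between the Col-0 lights. The summed level of 8 hypoxia genes was 431.2 ± 24.9 CPM in low-light Col-0, 178.0 ± 36.7 CPM in high-light Col-0 and 553.3 ± 43.8 CPM in hy5-2 at SIM 8D, the reverse order of most members between the Col-0 groups. Xylem markers, 7 genes, summed to 158.0 ± 18.3, 330.8 ± 24.9 and 233.3 ± 35.1 CPM in the same groups, and 6 markers of differentiated root to 66.3 ± 17.9, 47.4 ± 5.79 and 90.0 ± 23.3 CPM. The 10 epidermis and stomata markers summed to 24.7 ± 3.37, 31.6 ± 9.40 and 24.1 ± 1.39 CPM there, with EPF1 at 0 in all 3 groups, EPF2 at 0 in both Col-0 groups and MUTE at 0 in high-light Col-0, and to 2691 ± 148.1 CPM in Col-0 at T0, with counts for all 10. The part of these shifts in the members' values was not tested.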

How the data were processed

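Total RNA of hypocotyls, 33 libraries made with a stranded mRNA kit per the labels' protocols, is represented by 1 table of raw counts per locus deposited by the authors, whole numbers with no normalization. Per the submitters' processing notes the tools were STAR, bedtools, SAMtools and edgeR, with TAIR10 as genome. Tool versions, strandedness of counting and handling of multiply aligned reads are not stated in the labels or the table. Coordinates are those of the table, 1-based; RefSeq TAIR10.1 supplied names (99 of 100 members matched, 59 with a symbol) and promoter sequence.

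The members, gene lists and roles were chosen with earlier results of these data known. Named members are HY5 and HYH for reference, the 20 highest scores, up to 2 members per list, up to 5 calls per direction at T0, the 3 largest rises and falls per stage comparison, the 5 lowest and highest genotype differences, the scores at the edge of the list and neighbouring pairs; others named, mainly for their roles, were chosen after their values were seen. Members per role are few and no list was tested. Tests planned for a change of either light difference between CIM 4D and SIM 8D set values the rule used against each other, so nothing is read from them.

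Levels are CPM of the library total. Fold changes came from edgeR 4.0.16 in R 4.3.3: TMM scaling after filterByExpr with a count of 10 and a total of 15 as minima, a robust quasi-likelihood fit with 1 coefficient per group over all 33 libraries, two-sided p adjusted by Benjamini-Hochberg over 20842 loci (threshold 0.05; common biological coefficient of variation 0.0745). A run on simulated data covered only the T0 comparison and SIM 4D to SIM 8D in high-light Col-0. It planted no changes in loci of low mean level. Its outcome is not given here, so no accuracy is read from it. DESeq2 1.42.0, other scalings, no filter, a replicate block and leaving out each library were alternatives. Groups share replicate numbers in the labels. Deviations of same-numbered libraries correlated over 0.1 in every pair for CIM 4D to SIM 4D in low-light Col-0 (0.34, 0.26 and 0.17) and in hy5-2 (0.34, 0.24 and 0.15). They did so too for SIM 4D to SIM 8D in low-light Col-0 (0.28, 0.35 and 0.17). In the other comparisons every correlation was above 0, but not every one was over 0.1. At T0 they were 0.165, 0.207 and 0.07. In high-light Col-0 they were 0.345, 0.325 and 0.097 for CIM 4D to SIM 4D and 0.2, 0.33 and 0.007 for SIM 4D to SIM 8D. The last, SIM 4D to SIM 8D in hy5-2, had 0.092, 0.133 and 0.183. The main fit held no replicate term, and counts with a replicate block are given below.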

Additional observations from a re-analysis of the deposited data

How the results depend on the processing

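Of the 100 members, 87 stayed in the list with a pseudocount of 0.5, 64 with 5, 98 with TMM scaling, 42 when the mean of both differences was used, 59 when the lowest of all 6 was used, and 92 to 99 when 1 library was left out; 24 stayed under every form. The T0 count of 12 ran from 6 to 19 with 1 library left out. A subset of 27 members, chosen after seeing the data, had all 6 differences above 0.5. Of these, 33.3% and 7.4% passed in the 2 stage steps of low-light Col-0 and 22.2% from SIM 4D to SIM 8D in high-light hy5-2. Over all loci 43.9%, 14.9% and 19.8% passed in those comparisons. The libraries are those the rule used, so nothing is read from the subset's shares. The planned count for the change of high-light hy5-2 minus low-light Col-0 from CIM 4D to SIM 8D, 20 by edgeR, rests on values the rule used and is given only as a record: 11 (without Col-0 CIM 4D Low replicate 2) to 19 with 1 library left out, and 0 in that subset (4 at an unadjusted p under 0.05, 2 by DESeq2). All other counts under every scaling, filter, DESeq2, and left-out library were within 1.5 times the reported ones, and no result reversed. With a replicate block the counts were 16 at T0, 59 and 23 in low-light Col-0, 84 and 55 in high-light Col-0, 72 and 41 in hy5-2, 40 and 23 for the 2 planned changes of light differences and 129, 141 and 146 for the pathway genes. No count of the block fit differed by over 1.5 times. The fall of AT3G07620 from SIM 4D to SIM 8D in high-light Col-0, at least 6.66-fold, lost its call in 7 of 11 alternatives (adjusted p up to 0.12). Levels near 1 CPM rest on few counts.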
